A study of Mus musculus with 8 samples.

Results

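The SMN complex is the machine that loads a ring of Sm proteins onto the small nuclear RNAs (snRNAs) of the spliceosome in the cytoplasm. SMN, the protein reduced in spinal muscular atrophy, is its core, and the Gemin proteins and Strap bind to it. The genes described here are the 9 that encode it in the mouse: Smn1, Gemin2, Ddx20 (which encodes Gemin3), Gemin4, Gemin5, Gemin6, Gemin7, Gemin8 and Strap (also called Unrip). They were chosen by name out of 34745 listed genes, because Gemin4 was among the genes called in the diet comparison of these same tumours. All 9 passed the expression filter, which kept 13186 genes.

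RNA-seq libraries came from tumours that B16F10 cells, an established mouse melanoma line, formed under the skin of C57BL/6J mice. One group of mice ate a high cholesterol diet (HCD, 4 tumours, HCD 1 to HCD 4) and the other a normal diet (ND, 4 tumours, ND 1 to ND 4). No transgene or drug is named in the labels, and the sources used here do not give the composition or duration of the diets or the age of the animals. The labels number the tumours without saying that each had its own mouse, so a p-value here reflects only how these samples spread, and that spread may be technical. A tumour holds host cells besides melanoma cells, and fewer cells of a type and less RNA per cell cannot be told apart in such bulk samples.

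Library totals were 16.1 to 17.7 M counts in HCD and 14.6 to 17.6 M counts in ND. All 6 melanocyte markers (Pmel, Dct, Tyr, Tyrp1, Mlana and Sox10) had counts in every library, summing to 25500 to 29600 CPM (counts scaled to the library total, with TMM factors) in HCD and 28000 to 29300 CPM in ND. ND 2, ND 3 and ND 4 stood apart: 406 to 427 olfactory and vomeronasal receptor genes had counts there, against 8 to 13 genes in HCD 1 to HCD 4 and 11 in ND 1. Mitochondrially encoded genes took 12.2 ± 0.719% of counts in HCD and 14.0 ± 0.48% in ND (SD, n = 4 each), with an exact permutation p of 0.0286, two-sided, which no 4 against 4 comparison can go below. The 4 endothelial markers summed to 74.3 to 82.1 CPM in HCD and 53.3 to 70.9 CPM in ND (exact permutation p = 0.0286), all 4 with counts in every library. Summed levels of the other lists overlapped between the groups. The 6 macrophage markers, with counts in every library, ran from 363 to 483 CPM in HCD and from 264 to 417 CPM in ND. Fibroblast markers (5 of 6 with counts in every library, Lum at 0 in some) ran from 59.5 to 269 CPM in HCD and from 44.9 to 251 CPM in ND, and skeletal muscle markers (3 of 6, with Myh4, Tnnc2 and Tnnt3 at 0 in some) from 2.06 to 4.78 CPM in HCD and from 3.26 to 47.2 CPM in ND. The 5 T cell markers ran from 2.89 to 5.51 CPM in HCD and from 1.08 to 4.4 CPM in ND, adipocyte markers (1 of 3, Adipoq and Plin1 at 0 in some) from 8.84 to 22.6 CPM in HCD and from 6.92 to 10.5 CPM in ND, and the 3 keratinocyte markers reached at most 0.113 CPM in HCD and 0.0617 CPM in ND. The part of these differences in the levels below was not tested.

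Gemin4, the gene that led to this set, lies inside other gene models, and the sequences that show it come first. In GENCODE M21 (GRCm38, also called mm10) Gemin4 (ENSMUSG00000049396) spans chr11:76210571-76217664 on the minus strand. Its main transcript, Gemin4-201, has 2 exons, and its second exon of 3353 bases, with nearly all of the coding sequence, is also the last exon of Glod4-206, a transcript of the gene Glod4 on the same strand. The 30 bases across the splice junction into that exon, written 5′ to 3′ on the minus strand, tell the transcripts apart only in their first 15 bases (lower case). The capitals are the first 15 bases of the shared exon, chr11:76213909-76213923.
Gemin4-201: ccgccatggacctagGACCCTTGAATATCT
Glod4-206: aaattattggatgatGACCCTTGAATATCT

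Glod4 shared 3353 of the 3734 exonic bases of Gemin4 (89.8%). Fam57a, on the opposite strand, shared 2875 bases (77.0%) through its transcript Fam57a-202, and Dbil5, also on the opposite strand, shared 57 bases (1.53%). Only 324 exonic bases of Gemin4 (8.68%) belonged to no other annotated gene. The sources used here give neither the strand setting of the counting nor how reads over shared exons were assigned, if counted at all. The counts of Gemin4, Glod4 and Fam57a may therefore be mixed, or may lack reads over the shared exons. The end shared with Dbil5, a gene related to the diazepam binding inhibitor, falls in the promoter window of Gemin4 in RefSeq. That window is GRCm38.p6, chr11:76217523-76217822, minus strand, 250 bases before to 50 after the RefSeq start. It is shown because a pair of genes is annotated to start there in opposite directions. The capitals are the 57 bases that the first exons of Gemin4 and Dbil5 share in GENCODE.
Gemin4 promoter: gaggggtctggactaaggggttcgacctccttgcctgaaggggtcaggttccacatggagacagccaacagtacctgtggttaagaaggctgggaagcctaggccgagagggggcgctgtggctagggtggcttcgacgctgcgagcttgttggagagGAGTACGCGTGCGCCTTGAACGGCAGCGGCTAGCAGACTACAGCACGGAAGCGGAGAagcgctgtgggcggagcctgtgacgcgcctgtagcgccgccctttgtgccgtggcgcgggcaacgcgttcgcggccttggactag

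**Figure D1:**
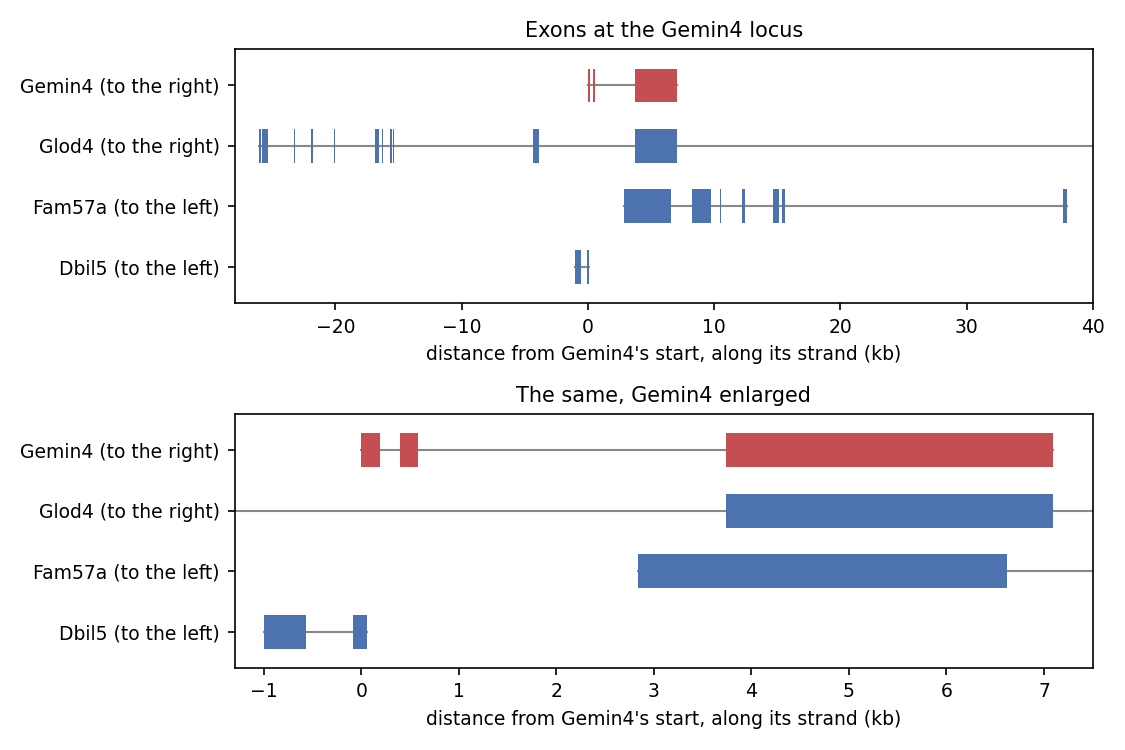
Exons of Gemin4 (red) and of the 3 genes that share exon positions with it (blue), drawn as boxes over all annotated transcripts, with the distance from the start of Gemin4 along its strand in kb on the horizontal axis and the direction of transcription beside each name. The lower panel enlarges Gemin4: its 3353-base exon lies wholly in an exon of Glod4 and mostly in one of Fam57a, and its start overlaps that of Dbil5.

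Gemin4 encodes a subunit that binds Gemin3. It stood at 36.9, 34.8, 35.9 and 37.4 CPM in HCD 1 to HCD 4, against 21.9, 23.9, 27.8 and 22.5 CPM in ND 1 to ND 4. All HCD tumours lay above all ND tumours, with ND 3 the nearest, and the HCD values were the more tightly grouped. The means were 36.3 ± 1.14 CPM in HCD and 24.0 ± 2.67 CPM in ND (SD, n = 4 each, as for every mean below). The log2 fold change was 0.59 (SE 0.0934). Since the call of this gene chose the set, these values are a description and carry no test. Of the 13186 genes tested, 24 were called in either direction at an adjusted p of 0.05 (0.182%), 9 of them higher (0.0683%) and 15 lower in HCD (0.114%), and Gemin4 is the 1 member among them. That call was lost when any 1 of the 8 tumours was left out.

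Of the genes that share its exons, Glod4 and Fam57a did not differ between the diets beyond their spread, and Dbil5 was too low to test. Glod4, which encodes a glyoxalase domain protein, stood at 47.7, 59.0, 59.9 and 53.0 CPM in HCD 1 to HCD 4 and at 53.9, 62.9, 59.1 and 47.8 CPM in ND 1 to ND 4, and the groups overlapped throughout. Its log2 fold change was -0.03 (SE 0.106, edgeR quasi-likelihood test, adjusted p = 0.945), and its sign turned with library totals alone as scaling (0.0177). Fam57a stood at 15.1, 39.7, 16.4 and 16.6 CPM in HCD 1 to HCD 4 and at 14.5, 32.5, 18.3 and 23.0 CPM in ND 1 to ND 4 (log2 fold change -0.01, SE 0.339, adjusted p = 0.993). It was highest in HCD 2 and in ND 2. Gemin4 had its lowest HCD value in HCD 2 (34.8 CPM), and in ND 2 it lay below only ND 3 (23.9 against 27.8 CPM). How reads were divided between the 2 genes was not tested. The log2 fold change of Fam57a was -0.46 without HCD 2, 0.24 without ND 2 and 0.59 with a term for ND 2 to ND 4. Dbil5 had 1, 1, 0 and 1 counts in HCD 1 to HCD 4 and 2, 7, 3 and 2 counts in ND 1 to ND 4, and did not pass the filter. Each of its HCD counts lay below each of its ND counts, at most 1 against at least 2. These are unscaled counts near 0 and carry no test. More genes had counts in ND 2 to ND 4 (18088 to 18224) than in the other libraries (16285 to 16745). Every HCD tumour lay below every ND tumour for 4.73% of genes tested.

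Counted as 1 gene, Gemin4, Glod4, Fam57a and Dbil5 together stood at 99.9, 132.9, 112.2 and 107.7 CPM in HCD 1 to HCD 4 and at 90.5, 120.3, 104.8 and 92.8 CPM in ND 1 to ND 4. The groups overlapped, with means of 113 ± 14.1 CPM in HCD and 102 ± 13.6 CPM in ND, and the log2 fold change of the sum was 0.15. Reads over shared exons that were left uncounted, if any, are missing from this sum. The nearest genes that do not overlap Gemin4 lay 26051 and 30924 bases away. Mrm3, a mitochondrial rRNA methyltransferase gene, stood at 10.0 ± 1.27 CPM in HCD and 8.01 ± 1.3 CPM in ND (log2 fold change 0.32, SE 0.159, edgeR adjusted p = 0.387). Vps53, an endosomal tethering gene, stood at 57.2 ± 2.73 CPM in HCD and 62.5 ± 1.84 CPM in ND (log2 fold change -0.13, SE 0.0667, adjusted p = 0.419).

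**Figure D2:**
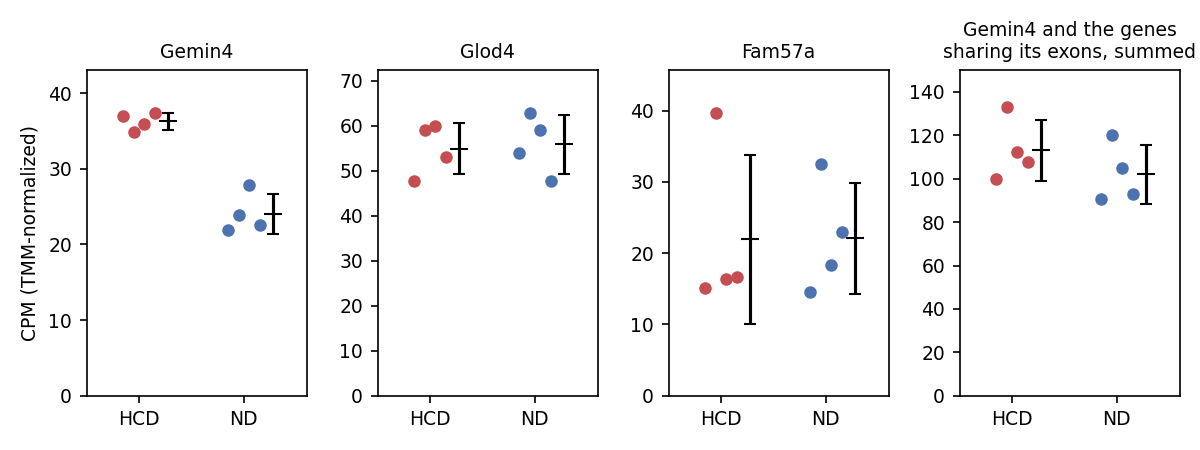
CPM of Gemin4, Glod4 and Fam57a and of the locus summed, with HCD left of ND in each panel, 1 point per tumour in the order 1 to 4 from left to right, and bars for mean and SD (n = 4 each). Gemin4 alone separates the groups, at 34.8 to 37.4 CPM in HCD and 21.9 to 27.8 CPM in ND; Glod4, Fam57a and the sum overlap.

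Of the 8 other members, 7 had a log2 fold change above 0, against 51.1% of all genes tested, and 0 passed at an adjusted p of 0.05 over all genes by edgeR, DESeq2 or limma-voom. At an unadjusted p under 0.05 by edgeR there were 3 (Gemin6, Ddx20 and Gemin5), all higher, while 7.21% of all genes tested were higher and 7.49% lower at that p. Every HCD tumour lay above every ND tumour for 2 of the 8, Ddx20 and Gemin5, and likewise for 4.94% of genes tested, while the reverse held for 4.73% of genes and 0 members. The median log2 fold change was 0.09 over the 8 and 0.00494 over all genes tested. Because the set was chosen with results of this comparison known, these counts describe the members and support nothing further.

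Smn1 (ENSMUSG00000021645, chr13:100124852-100137690, plus strand) encodes SMN, the scaffold that holds the complex together. It stood at 35.8, 33.6, 30.6 and 37.2 CPM in HCD 1 to HCD 4 and at 30.3, 33.9, 32.4 and 31.0 CPM in ND 1 to ND 4. The groups overlapped, with HCD 3 among the lowest and ND 2 among the higher values (log2 fold change 0.10, SE 0.087, edgeR adjusted p = 0.642). Gemin2 (ENSMUSG00000060121, chr12:59013393-59028470, plus strand) encodes the partner of SMN that clasps the Sm proteins. It stood at 12.1, 14.0, 10.8 and 12.7 CPM in HCD 1 to HCD 4 and at 9.73, 11.9, 12.8 and 12.6 CPM in ND 1 to ND 4. ND 1 was the lowest and the other libraries were mixed (log2 fold change 0.08, SE 0.13, adjusted p = 0.842).

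Ddx20 (ENSMUSG00000027905, chr3:105678270-105687574, minus strand) encodes Gemin3, the DEAD-box helicase to which Gemin4 binds. It stood at 36.1, 33.1, 32.6 and 34.3 CPM in HCD 1 to HCD 4 and at 25.5, 30.0, 29.5 and 29.8 CPM in ND 1 to ND 4. The groups did not overlap, and ND 1 lay well below the other ND tumours. The difference did not pass over all genes (log2 fold change 0.25, SE 0.0846, edgeR adjusted p = 0.223). Gemin5 (ENSMUSG00000037275, chr11:58120002-58168539, minus strand) encodes the subunit that recognises snRNAs. It stood at 75.1, 87.8, 79.4 and 76.6 CPM in HCD 1 to HCD 4 and at 74.1, 63.5, 67.4 and 69.1 CPM in ND 1 to ND 4. The lowest HCD tumour and the highest ND tumour were about 1 CPM apart, and the difference did not pass either (log2 fold change 0.22, SE 0.0778, adjusted p = 0.238).

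Gemin6, Gemin7 and Gemin8 encode the peripheral part of the complex, in which Gemin6 and Gemin7 have Sm-like folds and pair with each other. Gemin6 (ENSMUSG00000055760, chr17:80224441-80228497, plus strand) stood at 12.5, 11.4, 9.63 and 12.7 CPM in HCD 1 to HCD 4 and at 6.75, 8.08, 10.0 and 6.94 CPM in ND 1 to ND 4. Only HCD 3 and ND 3 crossed, and the log2 fold change of 0.54 (SE 0.16) was the nearest among the members to that of Gemin4 without passing (edgeR adjusted p = 0.164). Gemin7 (ENSMUSG00000044709, chr7:19564946-19577595, minus strand) was the 1 member with a negative log2 fold change, -0.13 (SE 0.0991, adjusted p = 0.613). It stood at 25.1, 27.1, 30.9 and 27.2 CPM in HCD 1 to HCD 4 and at 31.4, 26.2, 32.1 and 31.0 CPM in ND 1 to ND 4, and the groups overlapped. Gemin7 shares 263 of its 1782 exonic bases (14.8%) with Zfp296 on the opposite strand, a zinc finger gene at 1.38 ± 0.428 CPM in HCD and 1.04 ± 0.623 CPM in ND. Gemin8 (ENSMUSG00000040621, chrX:166170454-166190512, plus strand), which ties that pair to SMN, had the fewest counts of the members, 98 to 160 in HCD and 85 to 148 in ND. It stood at 8.51, 5.94, 8.08 and 9.08 CPM in HCD 1 to HCD 4 and at 7.15, 8.56, 9.14 and 5.9 CPM in ND 1 to ND 4, with each group holding a tumour near 6 CPM (log2 fold change 0.04, SE 0.185, adjusted p = 0.954).

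Strap (ENSMUSG00000030224, chr6:137735078-137751932, plus strand) encodes a WD-repeat protein that binds the complex in the cytoplasm and also acts in TGF-beta receptor signalling. It was the member with the most counts, at 304.1, 328.5, 306.3 and 334.1 CPM in HCD 1 to HCD 4 and at 260.4, 320.4, 345.3 and 289.8 CPM in ND 1 to ND 4. Its ND values enclosed the HCD values, and the log2 fold change was 0.07 (SE 0.0874, edgeR adjusted p = 0.787). The edgeR estimate of the coefficient of variation between tumours ran from 9.99% for Gemin5 to 18.8% for Gemin8 among the members, with a median of 14.0% over all genes tested. No member apart from Gemin4 and Gemin7 shared exon positions with another annotated gene.

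**Figure D3:**
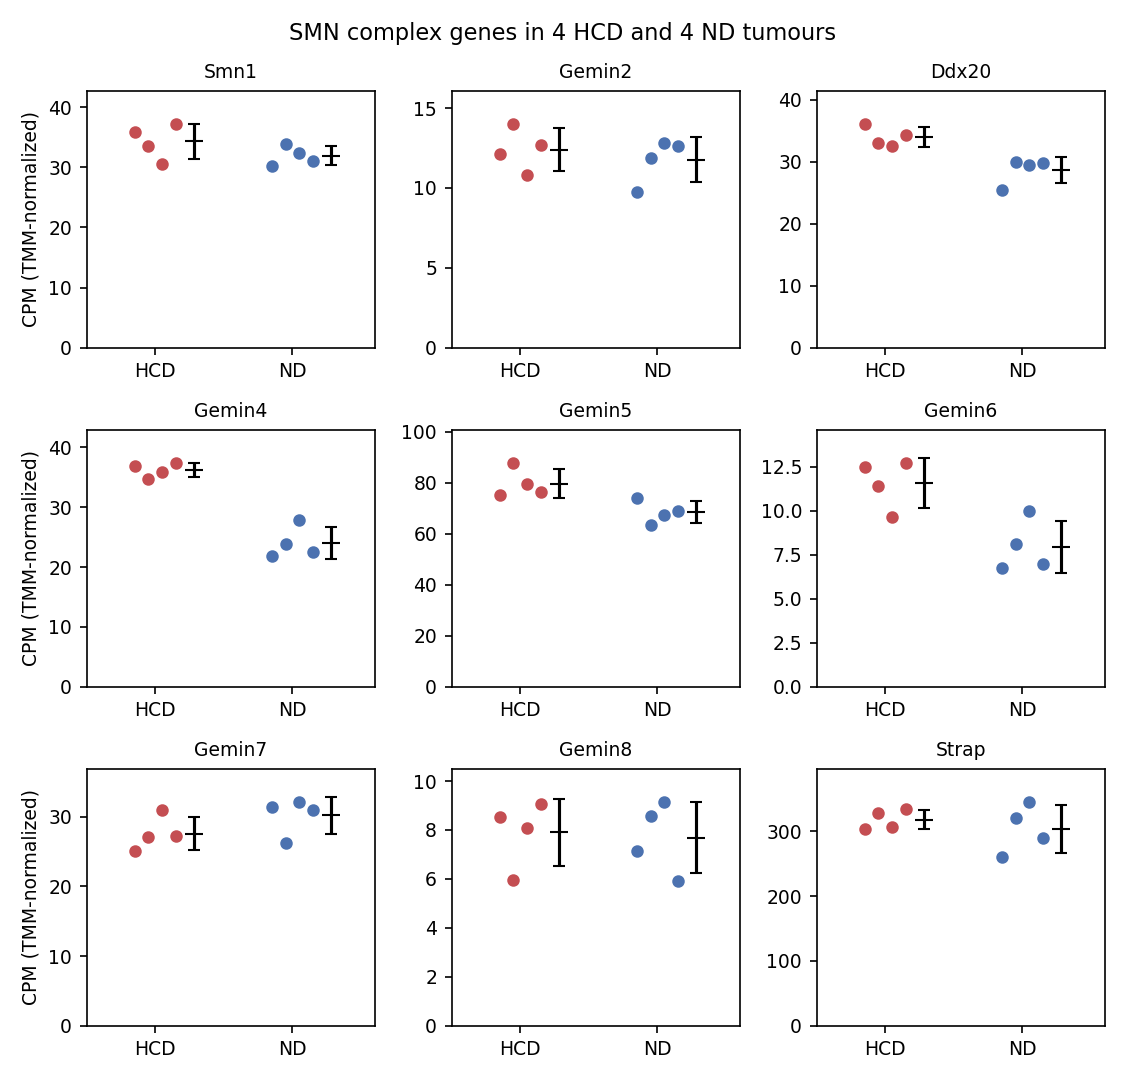
CPM of the 9 SMN complex genes, HCD left of ND in each panel, 1 point per tumour in the order 1 to 4 from left to right, with bars for mean and SD (n = 4 each); every vertical axis starts at 0 and has its own scale. The groups are apart for Gemin4, Ddx20 and Gemin5 and overlap for the other 6.

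**Figure D4:**
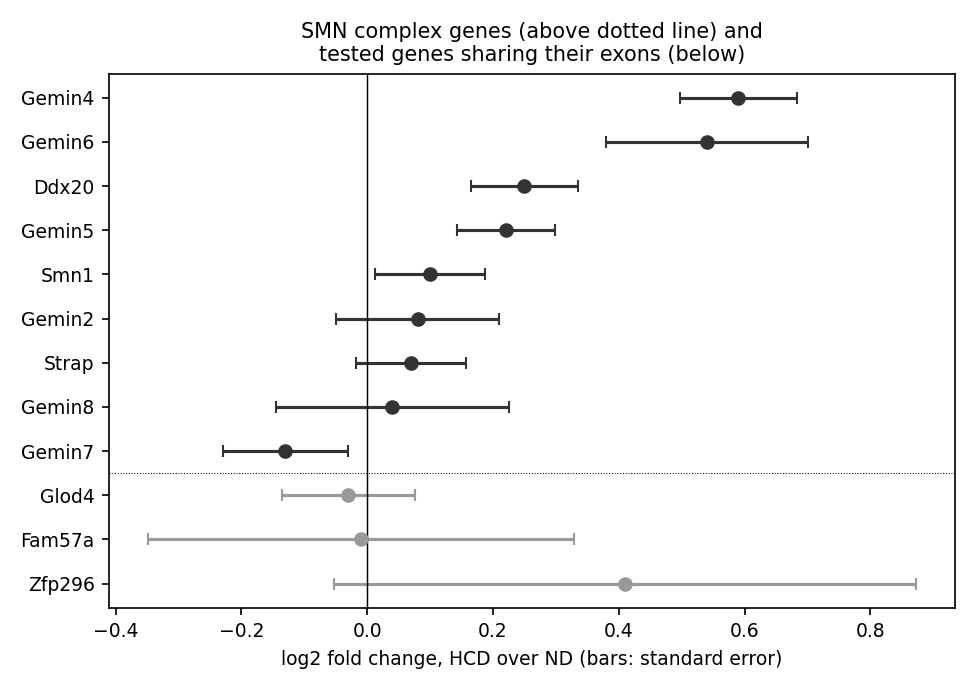
Log2 fold change of HCD over ND with its standard error (edgeR, n = 4 each) for the 9 members, in order of size, and below the dotted line for the tested genes that share their exons. Gemin4 and Gemin6 lie at 0.59 and 0.54, Ddx20 and Gemin5 at 0.25 and 0.22, and the other members between -0.13 and 0.10; Zfp296 has a standard error of 0.463.

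ND 1 was the lowest ND tumour for Smn1, Gemin2, Ddx20, Gemin4, Gemin6 and Strap and the highest for Gemin5. The share of all genes with ND 1 lowest or highest is not given here, so these places describe the members only. With a term for ND 2 to ND 4, which rests the diet contrast on ND 1 alone and assumes that this lone library varies like the others, most log2 fold changes were larger: 0.73 for Gemin4, 0.78 for Gemin6, 0.42 for Ddx20, 0.35 for Gemin2, 0.29 for Strap and 0.18 for Smn1. That of Gemin5 was 0.10 with the term. All of these values set HCD against ND 1 alone, so they are given as effect sizes only.

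Levels of different genes can be compared only per length, and the deposited FPKM (fragments scaled to gene length and to library totals, without TMM) serve for that. The order in HCD was Strap at 96.4 ± 3.77 FPKM, then Gemin5 (10.6 ± 0.784), Gemin4 (9.75 ± 0.298), Smn1 (8.54 ± 0.711), Gemin6 (8.22 ± 1.01), Ddx20 (6.82 ± 0.377), Gemin7 (6.6 ± 0.542), Gemin2 (3.51 ± 0.376) and Gemin8 (1.28 ± 0.216 FPKM). The order in ND was Strap at 89.2 ± 10.2 FPKM, then Gemin5 (8.81 ± 0.616), Smn1 (7.7 ± 0.353), Gemin7 (6.99 ± 0.632), Gemin4 (6.26 ± 0.656), Ddx20 (5.57 ± 0.397), Gemin6 (5.47 ± 0.991), Gemin2 (3.23 ± 0.377) and Gemin8 (1.2 ± 0.221 FPKM). Strap at the top and Gemin2 and Gemin8 at the bottom were apart from their neighbours in every tumour of both groups. In the middle of the order in ND, from Gemin5 to Gemin6, the tumours of each gene overlapped those of the next. In HCD the overlap ran from Gemin5 to Gemin4 and from Smn1 to Gemin7, with Gemin4 above Smn1 in every tumour.

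These levels depend on the gene length behind them. The lengths recovered from the deposited values were 6278 bases for Gemin8, 4242 for Gemin7 and 4074 for Smn1, against 2487, 1782 and 2592 exonic bases in GENCODE M21. With the GENCODE lengths Gemin7 came second to Strap, at 15.7 ± 1.29 FPKM in HCD and 16.6 ± 1.51 FPKM in ND, and Gemin4 came the fifth in HCD at 9.85 ± 0.302 FPKM and the sixth in ND at 6.33 ± 0.663 FPKM. The top place of Strap and the bottom places of Gemin2 and Gemin8 were the same with either length. The exon sharing of Gemin4 applies to its per-length level as well.

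Near-identical copies elsewhere in the genome could take reads from some members. Transcript alignments found a transcribed processed pseudogene of Gemin4 on chromosome 15, Gm6330, 97.6% identical over 1439 bases. Gemin6 has such copies on chromosome 6 (Gemin6-ps, 97.4% over 501 bases) and chromosome 12 (Gm3678, 95.8% over 495 bases), Gemin8 on chromosome 13 (Gm5455, 98.7% over 715 bases) and Gemin2 on chromosome 1 (Gm19086, 90.6% over 670 bases). Values of these copies were not analysed here, so the levels of Gemin4, Gemin6, Gemin8 and Gemin2 are uncertain to that extent.

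RefSeq promoter windows were at hand for all 9 members (11 windows, among 32851 of all genes). The cAMP response element TGACGTCA, searched on both strands, was present in the window of Gemin6 alone among the members and in 1.79% of all windows. The window of Gemin6 (GRCm38.p6, chr17:80224201-80224500, plus strand) is shown because its log2 fold change came nearest to that of Gemin4, whose window lacks these letters, and the capitals mark the element.
Gemin6 promoter: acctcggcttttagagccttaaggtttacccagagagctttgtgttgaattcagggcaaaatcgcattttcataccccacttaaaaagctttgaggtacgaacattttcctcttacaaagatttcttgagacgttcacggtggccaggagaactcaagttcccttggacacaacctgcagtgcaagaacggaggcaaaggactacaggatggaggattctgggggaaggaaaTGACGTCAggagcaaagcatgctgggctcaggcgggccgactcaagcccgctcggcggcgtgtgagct

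A GC box (GGGCGG, either strand) was in the windows of 6 members (Ddx20, Gemin7, Gemin5, Gemin4, Gemin2 and Gemin8) and in 35.7% of all windows. Members are counted by gene, while the shares are of windows, so the units differ. The ETS letters CCGGAAG were in those of Strap, Smn1 and Gemin8 (8.86% of all), and the NRF1 motif in those of Strap and Gemin2 (4.6% of all). CCAAT was in those of Smn1 and Gemin8 (37.4% of all), while neither CACGTG (7.15% of all) nor TATAAA (13.6% of all) was in any. No motif was in the windows of all of Gemin4, Gemin6, Ddx20 and Gemin5, and a match or its absence in these windows is a description of the letters only.

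Profiles over the 8 tumours were compared by the root mean square difference of log2 CPM, each gene centred on its own average, among 12444 genes with a mean of at least 1 CPM. The genes most like Gemin4 were Lyrm9 (0.0786), Zbtb40 (0.0792), Recql5 (0.0998), Bfar (0.102) and Ndc1 (0.105). Gemin6 was the nearest member at 0.121, with 9 genes closer to Gemin4, and Gemin7 the farthest at 0.39, with 7349 genes closer. Lyrm9 stood at 18.5 ± 1.58 CPM in HCD and 12.2 ± 0.654 CPM in ND (log2 fold change 0.60), and the helicase gene Recql5 at 27.5 ± 0.938 CPM in HCD and 19.1 ± 0.752 CPM in ND (0.53). Both were selected by this likeness, so their diet difference is no separate result. The distance over all 8 tumours takes in the diet difference. A gene with a log2 fold change near that of Gemin4, such as Gemin6, therefore ranks nearer by it. With profiles centred within each diet group, Strap was the nearest member (0.0685, with 169 genes closer) and Gemin8 the farthest (0.179, with 6011 genes closer). Gemin6 was then at 0.118, with 2135 genes closer. Either distance also takes in the noise of counting, which is larger at low counts. Strap had the most counts of the members and Gemin8 the fewest, and the part of that noise in the order was not tested.

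The substrates and partners of the complex were read from 8 lists with 97 symbols, of which 94 genes were tested. By edgeR 0 of the 94 passed over all genes in either direction. At an unadjusted p under 0.05 there were 9 (9.57%), all higher in HCD. Of all genes tested, 7.21% were higher and 7.49% lower at that p, or 14.7% in either direction. DESeq2 passed 4 of the 94 (Wdr77, Ints3, Lsm8 and Ncbp2) and limma-voom 0, while DESeq2 passed 3.31% of all genes to which it gave an adjusted p and limma-voom 0.144%. A count of 4 of 94 is near that background. Every HCD tumour lay above every ND tumour for 8 of the 94 (8.51%, against 4.94% of all genes). The reverse held for 0 of the 94 and for 4.73% of all genes. The median log2 fold change over the 94 was 0.048. List medians below are from the fit with all 8 tumours, and their order and size moved when 1 was left out.

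The Sm core genes encode the ring that the complex loads. Of 7 tested, 2 were higher and 5 lower, with a median log2 fold change of -0.033. Snrpf stood at 70.1 ± 3.26 CPM in HCD and 62.6 ± 3.71 CPM in ND (log2 fold change 0.16, SE 0.0713, edgeR adjusted p = 0.328), and Snrpd2 at 42.3 ± 2.69 CPM in HCD and 47.4 ± 4.08 CPM in ND (-0.16, SE 0.086, adjusted p = 0.415). The methylosome modifies arginines of Sm proteins before they reach SMN, and 4 of its 6 genes were higher, with a median of 0.087. Wdr77, its WD-repeat subunit, had the smallest adjusted p of all the lists, 0.0954 by edgeR. It stood at 34.4, 36.4, 35.5 and 34.4 CPM in HCD 1 to HCD 4 and at 30.6, 24.6, 24.2 and 25.2 CPM in ND 1 to ND 4, so the groups were apart and ND 1 was the highest ND tumour, the reverse of its place for Ddx20 and Gemin4. The methyltransferase gene Prmt5 stood at 129 ± 10.3 CPM in HCD and 122 ± 5.54 CPM in ND (log2 fold change 0.08, adjusted p = 0.67), a sign that turned with the term for ND 2 to ND 4.

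The Lsm genes encode the Sm-like rings of U6, mRNA decay and U7, and 3 of 10 were higher and 7 lower (median -0.062). Lsm8, of the nuclear ring, stood at 88.2, 74.9, 79.1 and 80.2 CPM in HCD 1 to HCD 4 and at 49.0, 50.3, 74.2 and 64.1 CPM in ND 1 to ND 4. The groups were apart by less than 1 CPM, between HCD 2 and ND 3 (log2 fold change 0.44, SE 0.13, edgeR adjusted p = 0.164). In the list of snRNA export, cap and import 7 of 9 genes were higher, with a median of 0.142. That median was above the methylosome's with all 8 tumours but below it without HCD 1 (0.112 against 0.117), HCD 4 (0.104 against 0.114) or ND 1 (0.11 against 0.154). The cap-binding gene Ncbp2 stood at 39.8 ± 4.39 CPM in HCD and 31.3 ± 1.45 CPM in ND (log2 fold change 0.35, adjusted p = 0.14), the cap hypermethylase gene Tgs1 at 29.2 ± 2.58 CPM in HCD and 23.7 ± 1.94 CPM in ND (0.31, adjusted p = 0.193), and the exportin gene Xpo1 at 136 ± 15.9 CPM in HCD and 117 ± 8.33 CPM in ND (0.22, adjusted p = 0.316).

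Genes for snRNA transcription and 3′ processing, mostly subunits of the Integrator, were higher in 14 of 19 (median 0.107, and 0.0322 without HCD 4). Ints3 stood at 79.3, 76.6, 69.5 and 78.6 CPM in HCD 1 to HCD 4 and at 55.9, 52.6, 68.0 and 57.2 CPM in ND 1 to ND 4. The groups were apart, with HCD 3 and ND 3 closest (log2 fold change 0.38, SE 0.0908, edgeR adjusted p = 0.115). Proteins of the major snRNPs, in which the assembled particles end, were higher in 17 of 27 (median 0.052, and 0.0108 without HCD 2), with log2 fold changes from -0.16 to 0.14. Those of the minor spliceosome were higher in 3 of 8 (median -0.013). Argonaute and miRNA processing genes, listed because human GEMIN3 and GEMIN4 were found with Argonaute, were higher in 5 of 8 (median 0.066, turning to -0.0562 when the term for ND 2 to ND 4 was added). Of these Dgcr8, the partner of Drosha, stood at 39.6 ± 2.41 CPM in HCD and 33.8 ± 1.69 CPM in ND (log2 fold change 0.23, adjusted p = 0.225), Dicer1 at 101 ± 8.63 CPM in HCD and 113 ± 7 CPM in ND (-0.16, adjusted p = 0.38), and Ago1 at 68.3 ± 1.92 CPM in HCD and 63.0 ± 3.98 CPM in ND (0.12, adjusted p = 0.486).

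**Figure D5:**
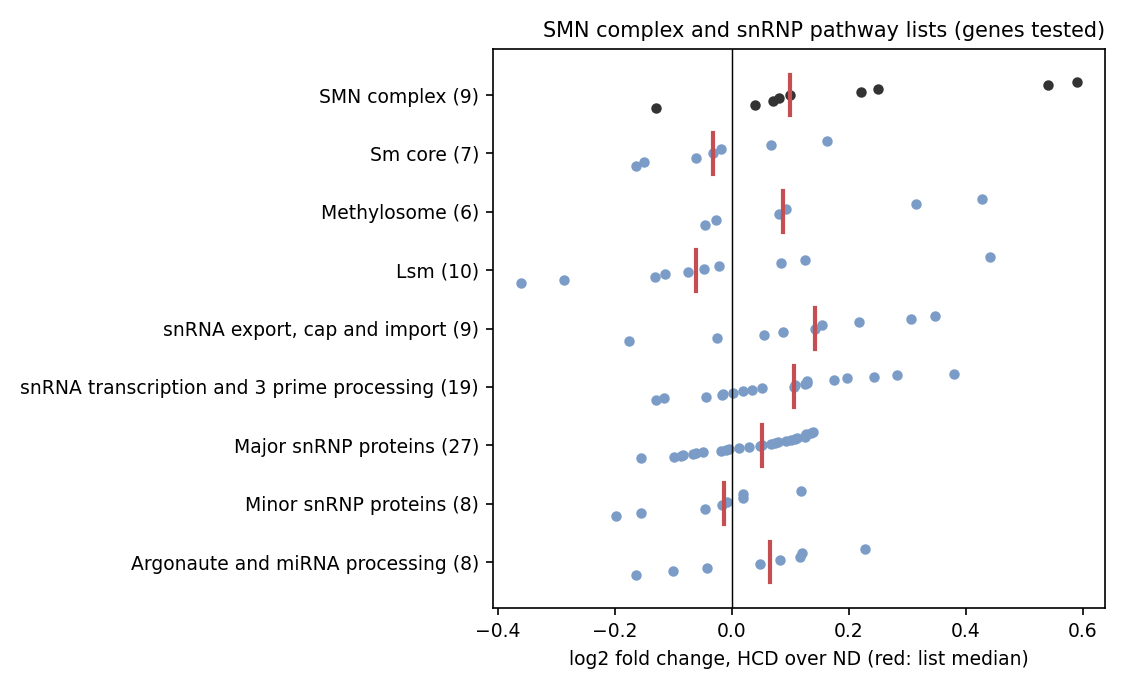
Log2 fold change of HCD over ND (edgeR, n = 4 each) for the SMN complex (black) and for the 8 pathway lists (blue), 1 point per gene, with the median of each list as a red line and the number of genes tested in brackets. With all 8 tumours, medians run from -0.062 (Lsm) to 0.142 (snRNA export, cap and import). Gemin4 at 0.59 and Gemin6 at 0.54 lie beyond every gene of the lists, whose highest value is 0.44. The call of Gemin4 in this comparison chose the set, so its place here carries no test.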

How the data were processed

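Counts per Ensembl gene and FPKM were deposited by the authors for each library, per the file headers: counts as whole numbers with no normalization, and FPKM as counts over a gene length and the library total, as the values show. Per the submitters' processing notes, CASAVA 1.8, TopHat2 2.0.9, HTSeq, edgeR and the build mm10 were used, with no roles given. Per the labels' protocols, RNA was column-purified and paired-end libraries were made with a TruSeq kit. No annotation release or strand setting is given in the sources used here.

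The counts of all 8 libraries (14.6 to 17.7 M) were tested with edgeR 4.0.16 (quasi-likelihood F-test, TMM, filterByExpr with minimum count 10 and minimum total 15, R 4.3.3), diet as the only term and Benjamini-Hochberg adjustment over 13186 genes with a threshold of 0.05. CPM use the TMM factors, log2 CPM a prior count of 2, and each standard error is the size of the log2 fold change divided by the root of F. Alternatives used DESeq2 1.42.0 and limma 3.58.1. Symbols (34267 of 34745 IDs) and exon overlaps came from GENCODE M21, copies from blastn 2.17.0 (at least 90% identity over 300 bases), promoters from RefSeq. Recovered gene lengths were within 1% of GENCODE M21 exonic bases for 12.3% of 13771 genes with at least 50 counts; the reason was not tested. The fit was also run on counts simulated from its own means and dispersions, with outcomes not reported here. That simulation had no shift in ND 2 to ND 4 and no shared exons, so it cannot speak to those.

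The named genes are the members, genes sharing their exons, the nearest neighbours of Gemin4, up to 3 genes with the smallest p from each pathway list and the 5 genes most like Gemin4 by each of the 2 centrings; single-gene results of some of the last are not reported here. The members and lists were chosen with earlier results of these data known. Replicates of a group differed by 14.5 to 37.6 times the noise of sampling (chi-square over its degrees of freedom), so each library counted as 1 sample. Exact permutation tests were two-sided.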

Additional observations from a re-analysis of the deposited data

Results flagged for a closer look

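In 96 groups of 4 tumours, each being 1 named gene in 1 diet, 6 held a tumour whose gap to the nearest of the others exceeded Dixon's 95% critical value of 0.829 of the group's range. Chance alone flags about 1 group in 20. Among the members, Ddx20 was at 25.5 CPM in ND 1, against 29.5 to 30.0 CPM in the other ND tumours. Of the genes that share exons with Gemin4, Fam57a was at 39.7 CPM in HCD 2, against 15.1 to 16.6 CPM in the other HCD tumours. Wdr77 was at 30.6 CPM in ND 1, against 24.2 to 25.2 CPM, and Lsm5 at 2.57 CPM in ND 1, against 4.88 to 5.07 CPM. Snrpg was at 18.5 CPM in ND 4, against 15.4 to 15.9 CPM, and Zrsr2 at 32.5 CPM in HCD 3, against 37.7 to 38.0 CPM.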

How the results depend on the processing

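The call of Gemin4 that chose the gene set lay close to the threshold (adjusted p = 0.0459 by edgeR). Gemin4 stayed called with size factors of DESeq2, upper-quartile factors, library totals alone, no filter, robust dispersion, DESeq2 and limma-voom (adjusted p from 3.4e-05 to 0.0491). It was lost without any 1 of the 8 libraries (adjusted p from 0.0504 without ND 3 to 0.138 without HCD 4), where its log2 fold change was 0.55 to 0.67 and 0 members were called. It was also lost with the replicate block (log2 fold change 0.60, adjusted p = 0.202), the term for ND 2 to ND 4 (0.73, 0.331), without mitochondrial genes and their nuclear copies (0.59, 0.0565) and when summed with the genes that share its exons (0.15, 0.612), so that 0 members were called in each of these 4. The cause was not tested, except that the sum holds the counts of Glod4 and Fam57a. A kept sign adds no support, since the groups do not overlap.

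The number of genes called, 24, was 45 with library totals alone, 93 with no filter, 428 with DESeq2, 50 with robust dispersion, 5 with the term and 4 without mitochondrial genes. It was 0 with the replicate block (1634 at an unadjusted p under 0.05) and 0 to 12 without 1 library, with 0 without HCD 4 (1516 at an unadjusted p under 0.05) and without ND 4 (1603). The counts gave no sign that the labels' replicate numbers pair the tumours. Deviations of same-numbered tumours correlated at -0.0676 to 0.107 over genes, and not every tumour correlated best with its own number. Such correlations cannot show whether the tumours were paired by design. Pathway genes called were 0 in every fit except DESeq2 (4).

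Signs turned in these fits. With library totals alone, Glod4 was at 0.0177 and Fam57a at 0.0349. With the term for ND 2 to ND 4, Glod4 was at 0.026, Fam57a at 0.59, Zfp296 at -0.35, Prmt5 at -0.0017, Lsm5 at 0.40, Rnpc3 at 0.21 and Cox7a2l at 0.062. Without 1 library, Gemin2 ran from -0.0056 to 0.13, Gemin8 from -0.067 to 0.15, Strap from -0.0013 to 0.13, Glod4 from -0.094 to 0.035, Fam57a from -0.46 to 0.24 and Zrsr2 from -0.073 to 0.0031. No call rested on any of them. List medians without 1 library ran from -0.084 to 0.0002 (Sm core), 0.039 to 0.154 (methylosome), -0.084 to -0.028 (Lsm), 0.104 to 0.194 (snRNA export, cap and import), 0.032 to 0.122 (snRNA transcription and 3′ processing), 0.011 to 0.076 (major snRNP), -0.09 to 0.0036 (minor snRNP) and 0.035 to 0.109 (Argonaute and miRNA). With the term, those of minor snRNP genes and of Argonaute and miRNA genes turned sign (0.109 and -0.056). With library totals alone, those of Sm core and minor snRNP genes turned sign (0.0104 and 0.0305). Depth limits Gemin8 most among the members, at 85 to 160 counts per tumour.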

Other observations

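With profiles centred within each diet group, so that the diet difference is taken out, the 3 genes most like Gemin4 by root mean square difference of log2 CPM over the 8 tumours were Tsnax (0.0283), Cox7a2l (0.0303) and Ddx18 (0.0337). Tsnax, which encodes the partner of translin, stood at 106.2, 94.8, 98.6 and 102.7 CPM in HCD 1 to HCD 4 and at 88.8, 93.9, 114.0 and 89.5 CPM in ND 1 to ND 4. ND 3 was its highest ND tumour, as it was for 6 of the 9 members (all but Smn1, Ddx20 and Gemin5). The share of all genes with ND 3 highest is not given here. Ddx18, a DEAD-box helicase gene, stood at 46.9 ± 0.67 CPM in HCD and 42.1 ± 3.24 CPM in ND (log2 fold change 0.16, SE 0.0757, edgeR adjusted p = 0.379).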
